A study of Mus musculus with 6 samples.

Results

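Myosin-binding proteins C and H are accessory proteins of the thick filament, and their transcripts were examined in the quadriceps of mice with 1 or 2 nebulin alleles. The 4 genes are Mybph, Mybpc1, Mybpc2 and Mybpc3, found among 15270 named genes of the table by their Entrez identifiers, with 1 probe set each (53311_at, 109272_at, 233199_at and 17868_at). They were chosen by gene family with the values of these same arrays in view, in which Mybph had rank 7 of 11544 by the size of the rise. The differences of the 4 genes between the genotypes are therefore descriptions. Their adjusted p are given as places in the fit across the whole table, and nothing is supported with them. All 4 genes lay above the limit for dim probe sets and were in the fit.

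RNA of the quadriceps, a thigh muscle, was measured on Affymetrix arrays, 1 per mouse. The groups were 3 heterozygous mice (nebulin +/-, carrying 1 allele) and 3 wild-type mice (nebulin +/+). The labels name no treatment in either group, give no age, sex or strain and do not say how the lost allele was made. Nebulin is a giant protein that lies along the thin filament of skeletal muscle. Its own probe set measured 12.08, 11.73 and 11.94 in heterozygous mice 1 to 3 and 12.17, 12.09 and 12.16 in wild-type mice 1 to 3, on the log2 scale of the deposited signal. Where those probes lie relative to the lost part of the gene is not given, so this value checks no label. All 8 skeletal muscle markers were bright enough for the fit, among them Ckm and Acta1, and 6 were among the 50 brightest gene probe sets. The normalization gives a fixed value to each place in the order of signals, so Acta1, the brightest on every array, had 14.81 on all 6, and these markers show that the tissue is muscle but do not compare its amount between genotypes. With 3 arrays in each group, the precision of all values is limited.

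Myosin-binding protein C sits in regular stripes in the inner part of each arm of the thick filament, where its tail binds myosin and titin and its head can reach the thin filament. It limits how readily myosin heads leave their resting state, and phosphorylation loosens that brake. Mybpc1 encodes the slow skeletal form, Mybpc2 the fast skeletal form and Mybpc3 the cardiac form, whose human mutations are a frequent cause of hypertrophic cardiomyopathy. Mybph encodes the shorter H protein, built from the same immunoglobulin and fibronectin type folds, which lies in the same region of the filament. A related gene, Mybphl, encodes a protein like H.

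The promoter windows of Mybph and Mybpc3 are shown because these 2 genes were the members higher in heterozygous muscle. Each covers the 250 bases before the RefSeq start site on assembly GRCm38.p6, both on the plus strand, at chr1:134193198-134193447 for Mybph and chr2:91117894-91118143 for Mybpc3. Capitals mark E-boxes, the sequence CANNTG that factors of the MyoD family bind.
Mybph: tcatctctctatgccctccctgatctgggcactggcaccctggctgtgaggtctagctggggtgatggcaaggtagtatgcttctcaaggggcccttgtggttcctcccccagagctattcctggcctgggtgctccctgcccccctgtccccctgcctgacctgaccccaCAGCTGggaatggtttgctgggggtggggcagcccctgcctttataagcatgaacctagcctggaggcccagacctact
Mybpc3: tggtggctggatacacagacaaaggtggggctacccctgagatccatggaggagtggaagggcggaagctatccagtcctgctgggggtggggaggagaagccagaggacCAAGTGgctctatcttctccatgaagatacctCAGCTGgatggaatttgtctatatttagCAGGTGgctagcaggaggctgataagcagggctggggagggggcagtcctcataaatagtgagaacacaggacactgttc
Mybph held 1 E-box, CAGCTG, whose first base lay 79 bases before the start. Mybpc3 held 3, which were CAAGTG at 140, CAGCTG at 108 and CAGGTG at 80 bases before it. Mybpc1 held 2 E-boxes and Mybpc2 held 1 in windows of the same length. An E-box on either strand was found in 66.2% of the 32851 promoter windows of this length in the table. Next to the E-box of Mybph, with no base between them or shared, stood the MCAT motif CATTCC, which TEAD factors bind, on the opposite strand. Mybpc2 also held an MCAT motif, and 12.6% of all windows did. The Mybpc3 window held a site for MEF2, a family of muscle transcription factors, which began 90 bases before the start and ended directly before the E-box at 80. A MEF2 site was found in 2.92% of windows. The core GGAAA, which NFAT binds, was in Mybpc1 alone of the 4 genes and in 55.6% of windows. These matches describe letters and show no binding.

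Mybph was the member with the largest difference between the genotypes. It measured 11.09, 10.20 and 9.98 in heterozygous mice 1, 2 and 3, against 9.47, 8.82 and 8.73 in wild-type mice 1, 2 and 3. Every heterozygous mouse lay above every wild-type mouse, with a gap of 0.51 between the lowest heterozygous and the highest wild-type value, and mouse 1 was the highest of each genotype. The mean of the heterozygous mice was 10.42 ± 0.59 and that of the wild-type mice 9.01 ± 0.40 (SD, n = 3 each). The log2 difference was 1.42 ± 0.29 (SE), 2.67-fold, and its 95% confidence interval ran from 0.76 to 2.07. In the fit over all probe sets this had an adjusted p of 0.0386 (limma).

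The spread of Mybph within a genotype was wide, 1.11 among heterozygous and 0.73 among wild-type mice on the log2 scale. Between mice of the same number the difference was 1.63 for mouse 1, 1.38 for mouse 2 and 1.25 for mouse 3. Since the genotypes do not overlap, any pairing of the mice gives positive differences. With 1 mouse left out the difference lay between 1.08 (without heterozygous mouse 1) and 1.65. The adjusted p passed 0.05 in 1 of these 6 fits, without heterozygous mouse 1, at 0.0268. It was 0.0917 without heterozygous mouse 2, 0.0646 without heterozygous mouse 3, and 0.0540, 0.114 and 0.111 without wild-type mouse 1, 2 and 3.

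**Figure D1:**
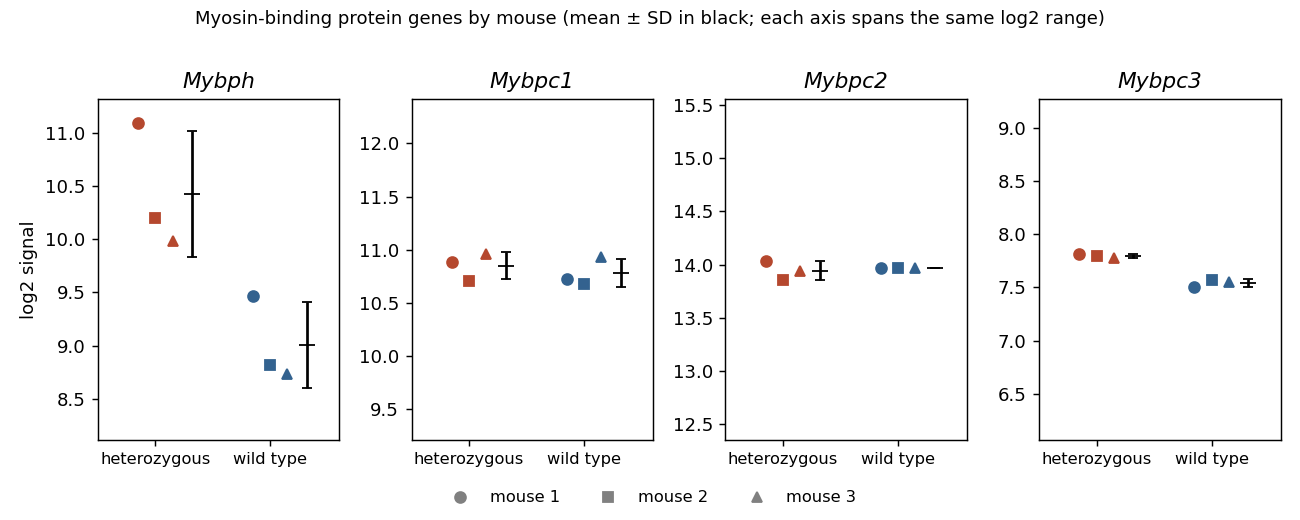
Log2 signal of the 4 genes in each mouse, heterozygous left (red) and wild type right (blue), with the mean and SD of each genotype in black and the same log2 span on every axis. The Mybph points of the heterozygous mice, 9.98 to 11.09, all sit above those of the wild-type mice, 8.73 to 9.47, whereas the Mybpc1 and Mybpc2 points of the genotypes overlap.

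Mybpc3, the gene of the cardiac form, differed less than Mybph, and its values were close together within each genotype. It measured 7.81, 7.80 and 7.77 in heterozygous mice 1, 2 and 3, against 7.50, 7.57 and 7.55 in wild-type mice 1, 2 and 3. The genotypes did not overlap, with a gap of 0.20 that exceeded the range within heterozygous (0.036) and within wild-type mice (0.071). The heterozygous mice averaged 7.79 ± 0.018 and the wild-type mice 7.54 ± 0.036 (SD, n = 3 each). The log2 difference was 0.25 ± 0.037 (SE), 19.0% higher with a 95% confidence interval of 12.3% to 26.1%. Its adjusted p in the fit over all probe sets was 0.0141 (limma). The Mybpc3 signal was not bright, at percentile 62.4 of the gene probe sets, where the median of an array was 7.23 and Mybph had percentile 91.7.

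Between mice of the same number, Mybpc3 differed by 0.31, 0.22 and 0.22 for mouse 1, 2 and 3. With any 1 mouse omitted the difference stayed between 0.23 and 0.27. The adjusted p then missed the threshold without heterozygous mouse 2 (0.0501), heterozygous mouse 3 (0.0527) and wild-type mouse 1 (0.0556).

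Most other heart muscle markers were dim. Of 8, 5 lay below the limit of 6.74 for a test, among them Myh6, the alpha myosin heavy chain, and Tnni3, the cardiac inhibitory troponin. Myh6 measured 6.12, 5.97 and 5.99 in heterozygous and 6.05, 5.98 and 6.02 in wild-type mice 1 to 3. The mean log2 level over the 8 markers ran from 6.86 to 6.98 in heterozygous and from 6.67 to 6.84 in wild-type mice. Most of this shift was that of Myl4, as Tnnt2 differed by 0.24 and Nppa by -0.029. The 5 below the limit differed little, Nppb the most, with means of 6.49 in heterozygous and 6.56 in wild-type mice. Of the 3 in the fit, Myl4, Tnnt2 and Nppa, none passed and 1 had an unadjusted p under 0.05 (limma). The largest difference was that of the light chain gene Myl4, which embryonic muscle also uses, with 8.86, 9.74 and 9.52 in heterozygous and 8.58, 8.70 and 7.80 in wild-type mice 1 to 3 (log2 difference 1.01 ± 0.27, SE; adjusted p = 0.0822). The part of these markers in the Mybpc3 difference was not tested.

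Mybpc1, the gene of the slow form, overlapped between the genotypes. It measured 10.88, 10.71 and 10.96 in heterozygous mice 1, 2 and 3, against 10.73, 10.68 and 10.93 in wild-type mice 1, 2 and 3. Mouse 3 was the highest and mouse 2 the lowest of each genotype. The heterozygous mean was 10.85 ± 0.13 and the wild-type mean 10.78 ± 0.13 (SD, n = 3 each), so the difference of 0.071 ± 0.080 (SE) was smaller than the spread between mice. The 95% confidence interval ran from -0.11 to 0.25 on the log2 scale, or at most 19.3% higher in heterozygous muscle. The adjusted p was 0.661 (limma), and none of the 6 fits without a mouse passed.

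Mybpc2, the gene of the fast form, measured 14.03, 13.85 and 13.94 in heterozygous mice 1, 2 and 3. It was 13.96 in each of the 3 wild-type mice. All wild-type values lay inside the range of the heterozygous mice. The identical values come from the normalization, which gives the same number to the same place in the order of signals, and Mybpc2 had place 17 on all 3 wild-type arrays and places 15, 20 and 18 on heterozygous arrays 1, 2 and 3. Of the 50 brightest gene probe sets, 7 had a single value in all wild-type mice. A small difference in so bright a transcript is thus measured only in steps. The log2 difference was -0.021 ± 0.049 (SE), with a 95% confidence interval of -0.13 to 0.091 (adjusted p = 0.851, limma). It was 0.025, with the opposite sign, without heterozygous mouse 2.

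Of the 4 genes, 2 passed the adjusted p of 0.05, both higher in heterozygous muscle and none lower. Among all genes measured, 3.11% of 11544 probe sets passed and 1.53% passed as higher. The values of the genotypes did not overlap for 2 of the 4, Mybph and Mybpc3, both higher, where 26.3% of all probe sets did not overlap in either direction and 13.1% as higher. Since this contrast was in view when the genes were chosen, nothing is read from these shares. The related gene Mybphl measured 7.20, 7.20 and 7.32 in heterozygous mice and 7.31, 7.26 and 7.24 in wild-type mice 1 to 3, overlapping between genotypes (log2 difference -0.031 ± 0.045, SE; adjusted p = 0.740, limma).

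Most thick filament and M-band genes around these proteins did not pass. Of 24 measured and tested, 3 rose, none fell and 21 did not pass, where 1.53% of all probe sets passed as higher. The list was chosen with earlier results known, so nothing is read from this share. The median log2 difference was 0.023, against -0.0013 over all probe sets tested. The 3 rises were Myh7, the slow myosin heavy chain (3.00 ± 0.38, SE; adjusted p = 0.0104), and the light chain genes Myl3 (0.60 ± 0.081; adjusted p = 0.0115) and Myl2 (0.71 ± 0.14; adjusted p = 0.0347), all of slow fibres. Myl2 missed the threshold without heterozygous mouse 1, 2 or 3 or wild-type mouse 1 (adjusted p = 0.0503, 0.104, 0.111 and 0.0974), while Myh7 and Myl3 passed in all 6 of these fits. With the replicate number as a block Myh3, the embryonic heavy chain, passed as well (log2 difference 0.52, adjusted p = 0.0299 against 0.292 without the block). Ttn, the gene of titin, which anchors myosin-binding protein C, measured 12.75, 12.28 and 12.60 in heterozygous mice and 12.75, 12.58 and 12.84 in wild-type mice 1 to 3. The groups overlapped (log2 difference -0.18 ± 0.11, SE; adjusted p = 0.412, limma). Of 11 sarcomere genes with immunoglobulin or fibronectin domains, Ttn among them, none passed and none had an unadjusted p under 0.05 (limma). Speg, a kinase of the same fold family, was closest to the threshold (-0.077, adjusted p = 0.363), and the median of the 11 was 0.016.

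**Figure D2:**
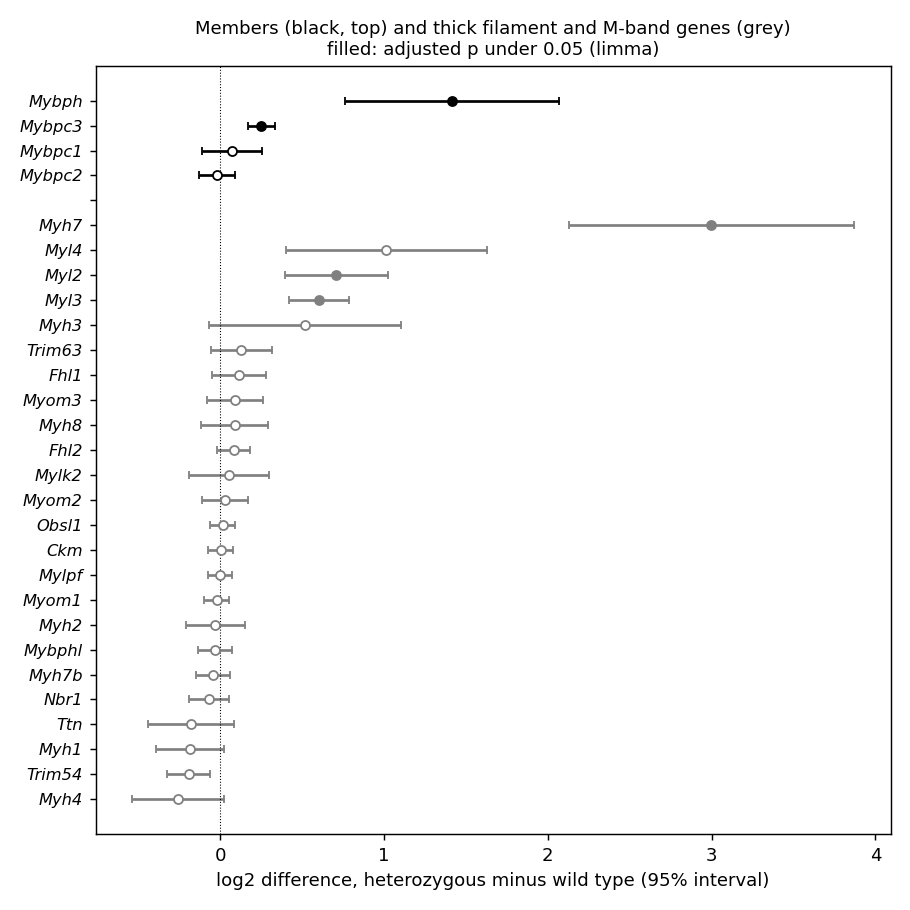
Log2 difference, heterozygous minus wild type, with its 95% confidence interval for the 4 members (black) and for 24 thick filament and M-band genes (grey), filled where the adjusted p was under 0.05 in limma. Mybph at 1.42 lies right of every grey point except Myh7 at 3.00, and Mybpc1 and Mybpc2 have intervals that include 0.

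The slow fibre genes that passed were all higher in heterozygous muscle, as Mybph and Mybpc3 were. Of 15 tested, 6 rose, none fell and 9 did not pass, with a median log2 difference of 0.60. Of all probe sets, 1.53% passed as higher, but this list too was chosen with earlier results known, so nothing is read from its share. The 6 include Myh7, Myl2 and Myl3, already counted with the thick filament genes. With the replicate number as a block 8 rose, Atp2a2 and Ankrd2 being added (adjusted p = 0.0127 and 0.0419). The largest rises were those of Myh7 and of the slow troponin genes Tnnc1 (2.43 ± 0.22, SE; adjusted p = 0.0035), Tnni1 (2.40 ± 0.16; adjusted p = 0.0014) and Tnnt1 (2.37 ± 0.15; adjusted p = 0.0014). The mean log2 level of the list ran from 10.49 to 10.61 in heterozygous and from 9.32 to 9.78 in wild-type mice. In whole muscle a larger share of slow fibres and more RNA per fibre cannot be told apart, and the part of slow fibres in the Mybph and Mybpc3 differences was not tested. Mybpc1, named for slow fibres, did not pass beside them. In wild-type mice Mybpc1 averaged 10.78, against 8.88 for Myh7, and whether it follows the share of slow fibres was not tested.

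Mouse by mouse, Mybph shared part of its order with Myh7 and the slow troponin genes, the largest rises of the slow fibre list. Mice of the same number deviated together across the arrays (r = 0.187, 0.234 and 0.129). How often other genes share this order was not tested. Myh7 measured 12.35, 11.62 and 11.67 in heterozygous mice 1, 2 and 3 and 9.46, 7.88 and 9.29 in wild-type mice 1, 2 and 3. Tnnt1 measured 11.64, 11.30 and 11.27 in heterozygous mice and 9.38, 8.79 and 8.93 in wild-type mice 1 to 3. Mouse 1 was the highest of each genotype in Mybph, Myh7, Tnnt1, Tnni1 and Tnnc1. Among heterozygous mice, mouse 3 was the lowest in Mybph, Tnnt1, Tnni1 and Tnnc1, and mouse 2 in Myh7. Among wild-type mice, mouse 3 was the lowest in Mybph and mouse 2 in the other 4 genes. Myl2 and Myl3, which also passed, had another order, with mouse 3 the highest wild-type mouse (12.02 and 12.18). In Myl3 the highest heterozygous mouse was mouse 2 (12.72). Of 13 fast fibre genes none passed in either direction and 1 had an unadjusted p under 0.05 (limma). Of these 13, 10 were among the 50 brightest gene probe sets and 3 had a difference of exactly 0, so most of the list lies where values come in fixed steps, and its median of 0 does not show that fast fibre genes were equal. Tpm1 (0.23, adjusted p = 0.0665) and Myh4, the fastest heavy chain (-0.26, adjusted p = 0.281), had the smallest p.

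**Figure D3:**
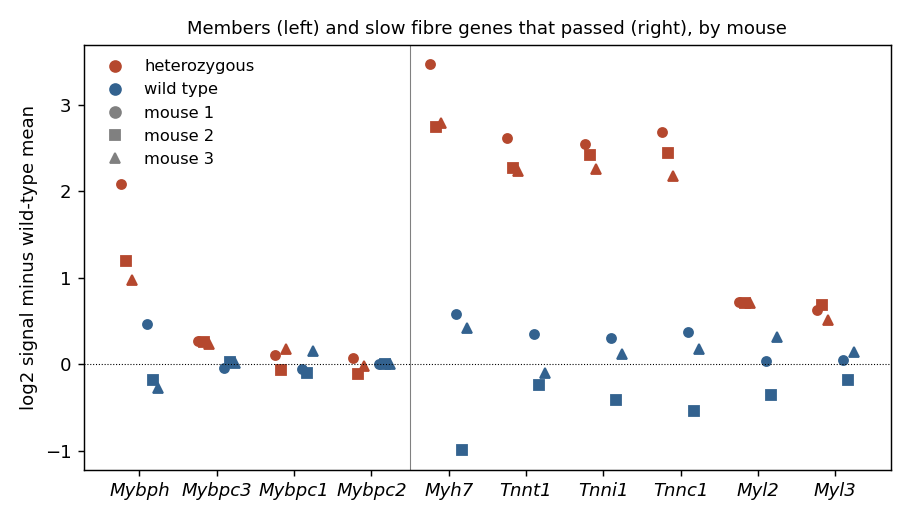
Log2 signal of each mouse minus the wild-type mean of the gene, for the 4 members (left) and the 6 slow fibre genes that passed (right), heterozygous in red and wild type in blue, with a symbol for each mouse number. The Mybph points spread over 1.11 in heterozygous mice, and the Mybpc1 and Mybpc2 points lie near 0 in both genotypes, while Myh7, Tnnt1, Tnni1 and Tnnc1 stand above 2 in every heterozygous mouse.

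Genes of embryonic and regenerating fibres gave 1 call. Of 13 tested, 1 rose, none fell and 12 did not pass, with a median of 0.084. With 1.53% of all probe sets passing as higher and the list chosen with earlier results known, nothing is read from this count. The rise was Myog, a transcription factor of muscle differentiation that binds E-boxes, which measured 7.59, 7.58 and 7.37 in heterozygous mice and 7.01, 7.18 and 7.19 in wild-type mice 1 to 3 (0.38 ± 0.072, SE; adjusted p = 0.0321, limma). It passed without heterozygous mouse 1 or 3, and missed the threshold without heterozygous mouse 2 (adjusted p = 0.103) and without wild-type mouse 1, 2 or 3 (0.0937, 0.0752 and 0.0630). Myod1, of the same factor family, differed by 0.35 (adjusted p = 0.0612 unpaired and 0.0368 with the block). With the block 3 rose (Myog, Myod1 and Myh3) and 1 fell, the cardiac actin gene Actc1 (-0.57, adjusted p = 0.0243, against 0.0630 without it).

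The list of enzymes that phosphorylate myosin-binding protein C, or remove the phosphate, also held regulatory subunits, among them Prkar1a, Prkar2a and Ppp1r12b. It included no change at the threshold, and phosphorylation itself was not measured. Of 15 tested none passed and 4 had an unadjusted p under 0.05 (limma), 3 differences were positive, and the median was -0.040. Camk2d, a calmodulin-dependent kinase that acts on the cardiac form, measured 7.88, 7.73 and 7.72 in heterozygous mice, below 8.00, 7.96 and 7.99 in wild-type mice 1 to 3. Its log2 difference was -0.20 ± 0.049 (SE; adjusted p = 0.0647 unpaired and 0.0463 when blocked on the mouse number). Prkacb, a catalytic subunit of protein kinase A, was also lower in every heterozygous mouse (-0.15 ± 0.040, SE; adjusted p = 0.0825, limma). Without overlap, 2 of the 15 were thus lower and 2, Camk2g and Ppp1ca, were higher. Of all probe sets tested, 13.2% did not overlap as lower and 13.1% as higher.

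The genes whose log2 values over the 6 mice were most like each member were found by Pearson correlation over 10845 other named genes, and since the mice share genotype and array normalization these values carry no test. For Mybph they were Supv3l1, an RNA helicase of mitochondria (r = 0.997), Plekhg2 (r = 0.995) and Prickle1, a planar polarity gene (r = 0.987). Their log2 differences were 0.071, 0.11 and 0.16, far smaller than that of Mybph, and none passed. For Mybpc3 they were Sde2 (r = 0.998), Jcad (r = 0.994) and Wipf3 (r = 0.994), with differences of 0.18, 0.13 and 0.13, of which Sde2 passed (adjusted p = 0.0360, limma). For Mybpc1 they were Ddx25, Nlrp9b and Slc10a7 (r = 0.988, 0.980 and 0.976), and for Mybpc2 Rrp1b, Zdhhc14 and Polr2b (r = 0.996, 0.990 and 0.987). No member was among the most alike genes of another.

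**Figure D4:**
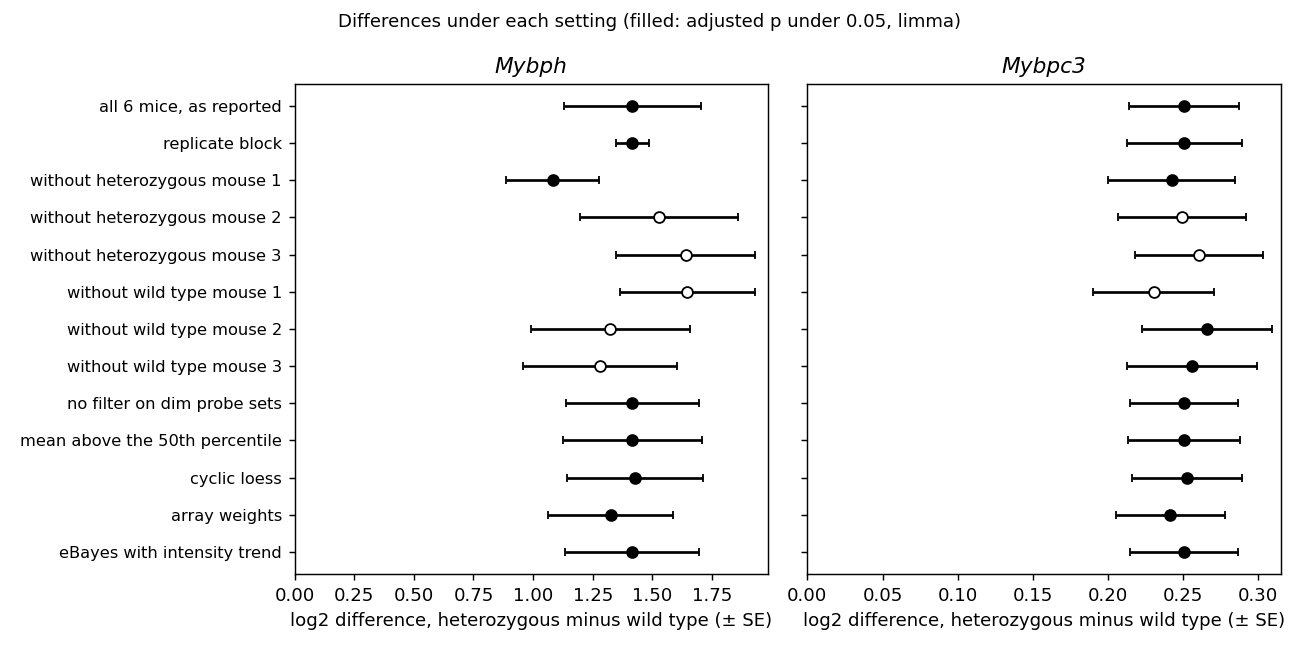
Log2 difference of Mybph (left) and Mybpc3 (right) with its SE under each setting of the fit, filled where the adjusted p was under 0.05. The Mybph difference lay between 1.08 and 1.65 and the Mybpc3 difference between 0.23 and 0.27, and the open points are fits without 1 mouse.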

How the data were processed

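The labels give 6 quadriceps samples, each a separate mouse, hybridised as biotin-labelled cRNA per the labels' protocols. The values deposited by the authors are log2 signals per probe set. Each array held the same set of values in another order (largest difference 0 after sorting), which is the mark of quantile normalization and hides any change common to all transcripts. No source used here names the summarising software. Of 16556 entries, 64 were controls and 16492 gene probe sets, of which 15270 carry 1 gene symbol and 1222 none in the platform annotation. All 15270 identifiers were found in the RefSeq table of GRCm38.p6, also the source of the promoter windows; no build is stated for the probe sets.

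Probe sets with a mean above the 30th percentile (6.74) were tested, 11544 in all, by lmFit and eBayes of limma 3.58.1 (R 4.3.3), heterozygous minus wild type, and Benjamini-Hochberg adjustment over all of them at 0.05. On simulated data the fit recovered 63.5% of changed probe sets at a log2 change of 0.3, 93.5% at 0.5 and 99.5% at 1. False calls numbered 7, 12 and 7. Members, gene lists and rules were chosen with earlier results of these data known. Named were the 4 members, of each of 6 pathway lists the genes that passed and the 2 with the smallest p, and the 3 genes most like each member. Neb, Mybphl, Myh3, Actc1, Atp2a2, Ankrd2 and all cell type markers that are not in this rule were named after their values were seen. Alternatives were the replicate block, each mouse left out, 2 other filters, cyclic loess, array weights and an intensity trend.

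Mice with the same number deviated together from their genotype means (r = 0.187, 0.234 and 0.129, each over the pairing limit of 0.1), while the labels do not say what a number stands for. The reported fit is unpaired, and blocked values stand beside a result whose call the block changes. No 2 arrays were copies: 25 to 56 gene probe sets had identical values in a pair.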

Additional observations from a re-analysis of the deposited data

How the results depend on the processing

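The differences of Mybph and Mybpc3 kept their direction under all 12 alternatives each, and that of Mybpc1 likewise. For Mybph and Mybpc3 this says little, since their genotypes do not overlap. Leaving out a mouse or weighting the arrays could not turn their sign. The replicate block, the other filters and the intensity trend left every difference as it was. Cyclic loess alone could have turned the sign, and it gave 1.43 for Mybph and 0.25 for Mybpc3. With a mouse left out the difference ranged from 1.08 to 1.65 for Mybph and from 0.23 to 0.27 for Mybpc3. It ranged from 0.016 to 0.15 for Mybpc1 and from -0.066 to 0.025 for Mybpc2. The turn to 0.025 came without heterozygous mouse 2. Mybph fell short of the threshold in 5 of these fits and Mybpc3 in 3, each of which has fewer mice, and both passed under the other 6 alternatives. With the replicate block the differences were unchanged and the adjusted p was 3.82e-04 for Mybph and 0.0202 for Mybpc3, and no call of a member changed. The number of probe sets past the threshold was 359, and 572 with the replicate block (262 higher, 310 lower); it ran from 84 to 503 with a mouse left out. Under cyclic loess 197 were higher and 166 lower, against 177 and 182 as reported. The small number of mice limits these results, and for Mybpc2 so does the top of the signal range.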

Other observations

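Among 27 tested markers of cells other than muscle fibres, 1 passed and 8 had an unadjusted p under 0.05 (limma). Of all probe sets tested, 3.11% passed, and nothing is read from this count. The endothelial gene Egfl7 measured 8.94, 8.89 and 8.81 in heterozygous mice and 9.15, 9.10 and 9.12 in wild-type mice 1 to 3 (log2 difference -0.25, adjusted p = 0.0271, limma). It missed the threshold in 5 of the 6 fits without a mouse, with an adjusted p up to 0.0910. The other 4 endothelial markers did not pass, Kdr, a receptor of vascular growth factor, being closest at -0.25 (adjusted p = 0.0575). None of 5 fibroblast, 3 leukocyte, 3 adipocyte, 4 smooth muscle, 3 nerve and 4 tendon markers passed. The adipocyte hormone gene Lep was higher in each heterozygous mouse (7.79, 7.14 and 7.18, against 6.75, 6.96 and 6.83 in wild-type mice 1 to 3; adjusted p = 0.108), and the fatty acid binding protein gene Fabp4 was lower in each (log2 difference -0.22, adjusted p = 0.0676). Such separation of the genotypes was found in 26.3% of all probe sets tested.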
